A study of Mus musculus with 13 samples.

Results

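The nuclear-encoded subunits of the mitochondrial respiratory chain were described in orthotopic 4T1 tumours of mice in which dividing PDGFRb-expressing cells can be killed. The respiratory chain is a set of protein complexes in the inner mitochondrial membrane. Complex I takes electrons from NADH and complex II from succinate, complex III passes them to cytochrome c, and complex IV hands them to oxygen. The protons pumped on the way drive complex V, the ATP synthase. Most subunits are encoded in the nucleus and a few of the core ones in mitochondrial DNA. Some complex IV subunits exist as a widely expressed form and a form found in heart and skeletal muscle.

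Members were the genes whose annotated symbol begins with Ndufa, Ndufb, Ndufc, Ndufs, Ndufv, Sdh followed by a to d, Uqcr, Cox4 to Cox8 or Atp5, with a probe detected (detection p below 0.05) on at least 1 array in each of the study's 2 non-normalised tables. Of 91 matching symbols, 87 were on the larger platform and 85 on the smaller, 82 and 77 were detected, and 73 met the rule in both tables. These 73 stand beside 12990 named genes with a detected probe on the larger platform and 9637 on the smaller. All 73 passed the filters on low signals, and 70 were detected on all 9 arrays of the larger platform. By complex, 64 were ubiquitous subunits, with 32 in complex I, 3 in complex II, 5 in complex III, 10 in complex IV (with Ndufa4 and Cox7a2l counted there) and 14 in complex V. Apart from these stood 3 muscle isoforms of complex IV (Cox6a2, Cox7a1 and Cox8b), 5 assembly factors that the symbol prefix brings in (Ndufaf1, Ndufaf3, Ndufaf4, Ndufaf5 and Ndufaf7) and 1 pseudogene name (Ndufs5-ps). Of the 18 matching symbols that are not members, 9 were detected on the larger platform only, 4 on the smaller only (Atp5g1, Cox7c, Cox8a and Uqcrb) and 5 on neither (Cox7b2, Cox8c, Ndufaf6, Ndufs1 and Sdha). The first 9 include Cox4i2, the lung form of Cox4, Cox6b2, the testis form of Cox6b, and Uqcrfs1, the Rieske iron-sulfur protein of complex III. Some were absent from a platform and not merely undetected. Atp5g1, Cox7c, Cox8a and Uqcrb had no probe with that symbol on the larger platform. Sdha, Ndufaf6, Ndufa11, Atp5md, Ndufaf2 and Ndufaf8 had none on the smaller.

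4T1 is a mouse mammary carcinoma line, and the tumours were grown in the mammary gland. PDGFRb-TK hosts carry viral thymidine kinase under the promoter of Pdgfrb, a receptor of pericytes and other mesenchymal cells, so that ganciclovir (GCV) kills dividing cells that express it; GCV was given to every sample's host. The larger platform held 9 arrays, 3 from PDGFRb-TK mice treated with anti-Ang2, which binds angiopoietin-2 (TK/anti-Ang2), 3 from PDGFRb-TK mice given control IgG (TK/IgG) and 3 from wild-type mice given control IgG (WT/IgG). The smaller held 1 array each of early pericyte ablation, its early control, late pericyte ablation and its late control, with age and the days of GCV not stated. The genotype field of the controls reads PDGFRb-TK while their descriptions say WT, and the transgene field reads positive for every sample, WT hosts included, so groups follow the titles. Nothing says that the 3 replicates came from separate animals, so the p-values measure the spread of these samples alone, and that spread may be technical. In whole tumours, fewer cells of a type and less RNA per cell cannot be told apart.

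On the 9 arrays 40.6 to 43.2% of probes were detected, with median signals of 119.1 to 134.7. Replicate 2 of TK/anti-Ang2 stood apart, with a median correlation of 0.931 to the other arrays, against 0.968 to 0.977 for the rest. Its keratinocyte list averaged a log2 signal of 12.12, against at most 9.36 elsewhere. On the smaller platform 42.6 to 48.9% of probes were detected on the 3 arrays with a usable detection p, since the detection column of the late control repeats its signal. Pdgfrb had log2 signals of 5.60, 6.49 and 5.93 in TK/anti-Ang2 and of 6.11, 5.64 and 6.23 in TK/IgG tumours, against 7.01, 6.93 and 7.33 in WT/IgG tumours, with every TK array under every WT array. In the pairs its log2 signal was 7.04 in early ablation, against 6.98 in the early control, and 6.68 in late ablation, against 7.46 in the late control. Of 10 markers of tumour epithelium 9 passed the filter on the larger platform.

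Promoters of 4 complex IV genes are shown because the results set widely expressed and muscle forms of these subunits side by side. Each is the 250 bases before the start site that RefSeq gives on GRCm38.p6, read 5′ to 3′ on the gene's strand, with searched motifs in capitals. Cox6a1, a widely expressed subunit, lies at chr5:115348959-115349208 on the minus strand and Cox7a2, another, at chr9:79759854-79760103 on the minus strand. Of the muscle isoforms, the promoter of Cox7a1 lies at chr7:30183921-30184170 on the plus strand and that of Cox8b at chr7:140900447-140900696 on the minus strand.
Cox6a1: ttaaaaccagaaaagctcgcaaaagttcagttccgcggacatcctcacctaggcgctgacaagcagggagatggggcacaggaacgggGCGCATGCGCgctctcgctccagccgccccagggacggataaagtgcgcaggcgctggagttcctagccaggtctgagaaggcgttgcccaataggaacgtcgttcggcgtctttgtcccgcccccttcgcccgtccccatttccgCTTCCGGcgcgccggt
Cox7a2: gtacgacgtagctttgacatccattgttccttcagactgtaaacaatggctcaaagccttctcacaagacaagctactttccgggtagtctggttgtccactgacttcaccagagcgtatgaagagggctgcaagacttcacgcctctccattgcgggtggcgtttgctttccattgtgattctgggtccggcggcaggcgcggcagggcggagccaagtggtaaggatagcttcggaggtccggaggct
Cox7a1: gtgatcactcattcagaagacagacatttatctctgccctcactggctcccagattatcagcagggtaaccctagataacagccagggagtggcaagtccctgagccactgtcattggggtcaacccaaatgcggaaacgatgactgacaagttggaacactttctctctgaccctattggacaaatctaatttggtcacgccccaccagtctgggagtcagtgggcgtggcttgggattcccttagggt
Cox8b: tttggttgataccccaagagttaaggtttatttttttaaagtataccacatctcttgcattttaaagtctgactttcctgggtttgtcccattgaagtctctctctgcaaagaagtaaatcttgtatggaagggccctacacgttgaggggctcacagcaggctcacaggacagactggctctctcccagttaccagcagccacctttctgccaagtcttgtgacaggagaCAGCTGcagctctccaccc
The Cox6a1 window held the palindromic NRF1 motif, its first run of capitals, starting 162 bases before the start site, and the reverse complement of the ETS motif CCGGAAG. In the Cox8b window the E-box CAGCTG started 19 bases before the start site. The Cox7a2 and Cox7a1 windows held none of the 5 motifs searched, and their GC content was 54.8% and 51.2%, beside 62.8% for Cox6a1 and 47.2% for Cox8b. Both strands were searched, the NRF1 and E-box motifs read the same on each, and the marked runs do not overlap. Of 56 ubiquitous subunits with an entry, 12 (21.4%) held the ETS motif, against 7.83% of all 27025 genes with an entry. The NRF1 motif was in 2 (3.57%), against 0.877%. A gene counted when the window of any of its start sites held the motif. The YY1 motif AAGATGGC was in 1 (1.79%, against 1.83%), the E-box in 4 (7.14%, against 14.7%) and the MEF2 motif TAAAAATA in 0 (against 2.84%). The median GC content was 57.6% for the 56 and 52.0% for all. A match of letters is a description and not a binding site.

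The first question was whether the chain's transcripts differed between TK/IgG and WT/IgG tumours. Signals are given as log2 values after background correction and quantile normalisation, and differences are log2 differences of group means from limma over all 9 arrays. The ubiquitous subunits lay slightly lower in TK/IgG tumours, the median difference being -0.0745 beside -0.0176 over all 11057 genes tested. Of the 64, 14 (21.9%) were higher and 50 lower, while 46.4% of all genes were higher. The differences ran from -0.56 to 0.12. No gene passed an adjusted p of 0.05 (0% of all genes, lowest adjusted p 0.4946), and 325 (2.94%) had an unadjusted p under 0.05, among them 1 member, Cox7a2. A typical member varied less than a typical gene: the SD within groups had a median of 0.138, beside 0.264 for all genes. Its standard error had a median of 0.148. Its 95% confidence interval reached a median of 0.336 to either side, which is wide beside the median difference of -0.0745.

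The shift was small beside the spread of the arrays. Taken as the mean deviation of the 64 subunits from their own averages, it was -0.0563 ± 0.105 in TK/IgG and 0.0427 ± 0.0529 in WT/IgG tumours (SD, n = 3 each). TK/IgG replicates 1 and 2 lay at -0.0871 and -0.143, but replicate 3 at 0.0608, among the WT/IgG arrays at 0.0865, 0.0577 and -0.016, so the groups overlapped. The median difference therefore hung on single arrays: it was -0.127 without TK/IgG replicate 3, with 54 of 64 lower, and -0.0307 without TK/IgG replicate 2, with 40 of 64 lower. Without WT/IgG replicate 3 it was -0.115. When arrays were scaled to one median instead of quantile-normalised, all genes moved by -0.101 and the subunits by -0.204, with all 64 lower. Relative to the median of all genes, the subunits lay between -0.103 and -0.0569 under all 5 scalings tried.

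**Figure D1:**
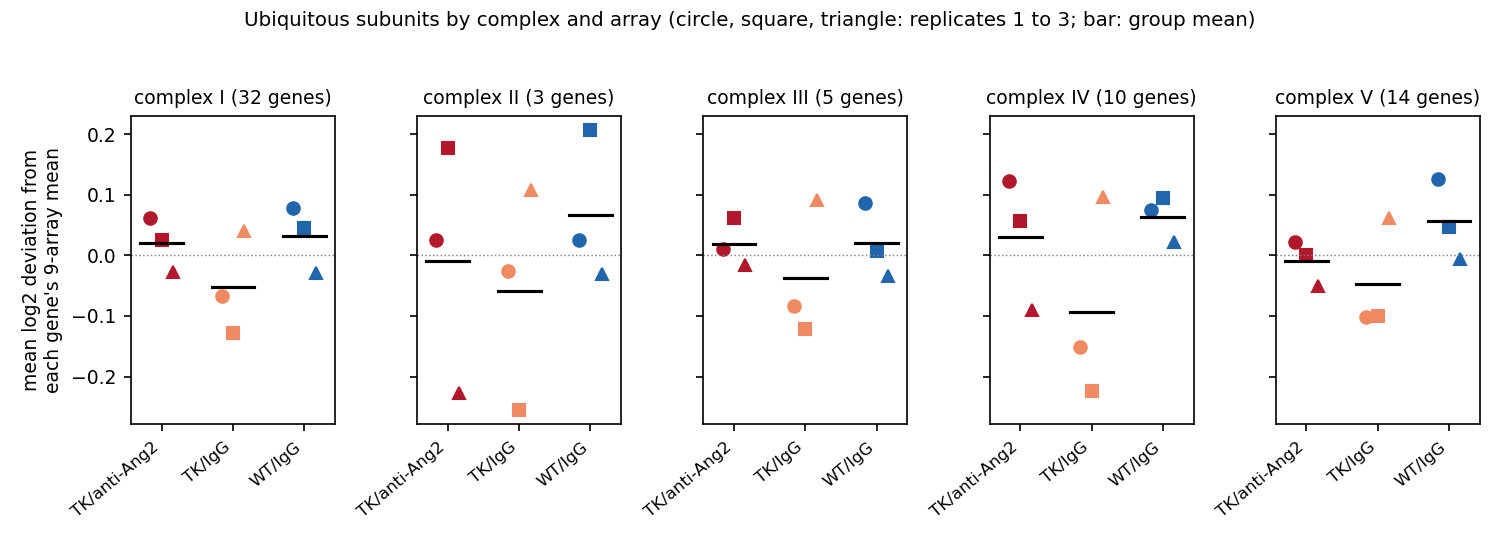
Mean log2 deviation of each complex's ubiquitous subunits from their own 9-array averages (vertical axis) for the 3 groups (horizontal axis), with a symbol for each replicate and a bar at the group mean. The groups overlap in every complex, and TK/IgG replicate 3 lies apart from the other TK/IgG arrays, at 0.0608 against -0.0871 and -0.143 over all 64 subunits.

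Complex I, the NADH dehydrogenase, had a median difference of -0.0818 in TK/IgG against WT/IgG tumours, with 8 of 32 subunits higher and 24 lower. Ndufv1, which binds NADH and the flavin, had log2 signals of 11.82, 11.76 and 11.83 in TK/IgG, against 11.67, 11.81 and 11.91 in WT/IgG tumours, a difference of 0.0052 (SE 0.128). The widest difference in complex I was that of Ndufb11, an accessory subunit of the membrane arm, with 4.95, 5.95 and 5.04 in TK/IgG, against 5.71, 6.04 and 5.69 in WT/IgG tumours, -0.50 (SE 0.29). Its TK/IgG array at 5.95 lay within the WT/IgG range, and signals this low are near background. Ndufb3, another membrane-arm subunit, had 10.42, 10.45 and 10.50 in TK/IgG, against 10.38, 10.35 and 10.40 in WT/IgG tumours. It was the only ubiquitous subunit whose TK/IgG arrays all lay above WT/IgG (3.19% of all genes did), by 0.0797.

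Complex II, succinate dehydrogenase, was represented by 3 subunits, all lower in TK/IgG tumours, by a median log2 difference of -0.141 that was 0.0224 without TK/IgG replicate 2. Sdhb, the iron-sulfur subunit, had 9.98, 9.85 and 10.02 in TK/IgG, against 10.04, 9.96 and 9.92 in WT/IgG tumours, overlapping throughout. Of the membrane anchors, Sdhc differed by -0.14 (SE 0.14) and Sdhd by -0.21 (SE 0.28). In complex III, the cytochrome c reductase, all 5 subunits were lower, by a median of -0.0399 that was 0.0042 without WT/IgG replicate 1. Uqcrc1, one of its core proteins, had 11.40, 11.36 and 11.28 in TK/IgG, against 11.41, 11.41 and 11.34 in WT/IgG tumours, and Uqcr11, a small subunit, had the widest difference of the complex at -0.18 (SE 0.16).

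Complex IV, cytochrome c oxidase, held the 2 widest differences among the ubiquitous subunits. Its median was -0.0554, with 3 of 10 subunits higher and 7 lower. Cox7a2, the widely expressed form of subunit VIIa, had 7.30, 7.53 and 8.01 in TK/IgG, against 8.07, 8.15 and 8.14 in WT/IgG tumours. All TK/IgG arrays lay below all WT/IgG arrays, as they did for 5.07% of all genes in that direction. The difference was -0.50 (SE 0.19, limma p 0.02638, adjusted p 0.9993), so it did not hold after adjustment over all genes, and it ran from -0.70 to -0.35 when single arrays were left out. Cox7b, another small subunit, had 5.74, 5.21 and 6.57 in TK/IgG, against 6.48, 6.50 and 6.24 in WT/IgG tumours. Its groups overlapped, with a difference of -0.56 (SE 0.30) that ran from -0.93 without TK/IgG replicate 3 to -0.25 without TK/IgG replicate 2. Cox4i1, the largest of the nuclear-encoded subunits, had 13.30, 13.45 and 13.60 in TK/IgG, against 13.53, 13.82 and 13.79 in WT/IgG tumours, a difference of -0.26 (SE 0.15). Cox5a, which lies on the matrix side, differed by -0.0822, and Cox6a1 and Cox6b1 by 0.0286 and -0.019, within the spread of the arrays.

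Complex V had a median of -0.0745, with 3 of 14 subunits higher and 11 lower. The catalytic pair were Atp5a1 (alpha), which differed by -0.25 (SE 0.18), and Atp5b (beta), which differed by -0.0586 (SE 0.13). The second Atp5a1 probe went the other way, at 0.29. Atp5mpl, a small membrane subunit, had 12.94, 12.91 and 13.06 in TK/IgG, against 13.22, 13.17 and 13.12 in WT/IgG tumours. It and Cox7a2 were the only ubiquitous subunits whose TK/IgG arrays all lay below WT/IgG, but its second probe differed by 0.22 while this one differed by -0.20. Of the genes for the rotor's subunit c, Atp5g2 differed by -0.0885 and Atp5g3 by -0.20 (SE 0.14). In all, 25 members had several detected probes, which shared a sign in 13 and were mixed in 12 in this comparison.

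Of the 5 assembly factors 3 were higher in TK/IgG tumours, the median being 0.141. Ndufaf1, a factor for early complex I intermediates, differed by 0.20 (SE 0.24), Ndufaf3 by 0.14 (SE 0.24) and Ndufaf7, a methyltransferase acting on complex I, by 0.19 (SE 0.19). Without TK/IgG replicate 2, Ndufaf1 and Ndufaf3 were at -0.041 and -0.0012. Ndufs5-ps differed by -0.11 (SE 0.18). No assembly factor had an unadjusted p under 0.05.

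**Figure D2:**
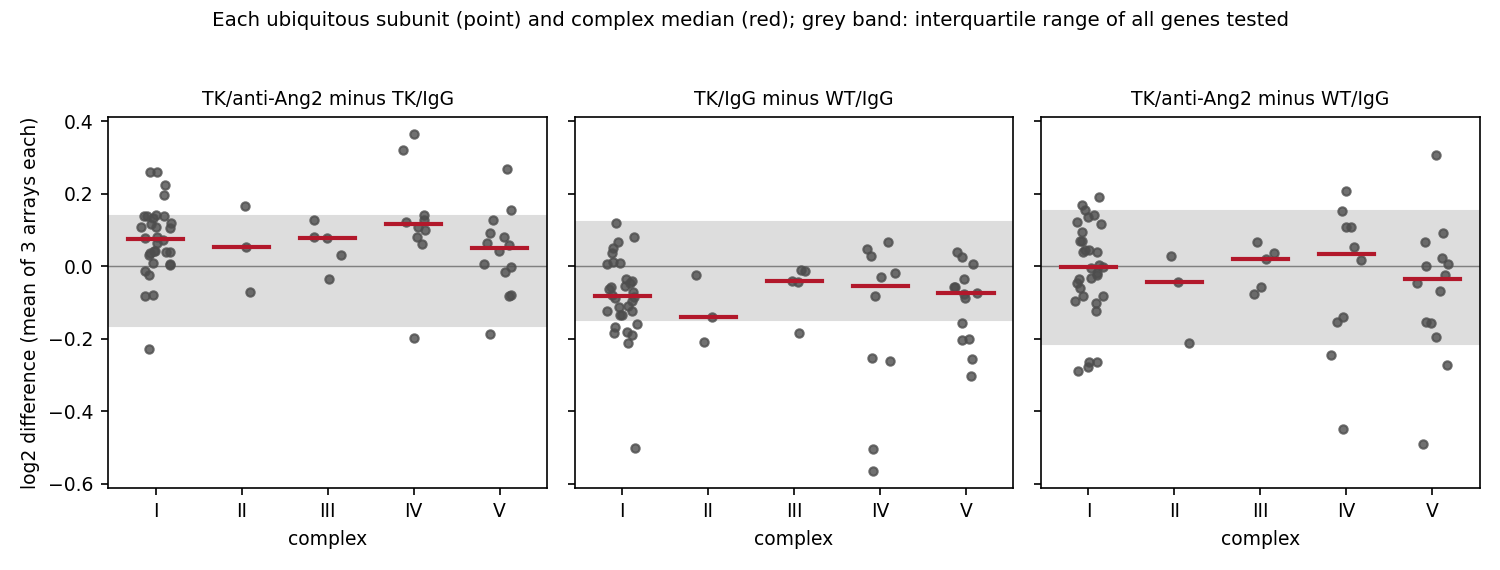
Log2 difference of each ubiquitous subunit (one point per gene, vertical axis) by complex (horizontal axis) in the 3 comparisons of the 9 arrays, with the complex median as a red bar and a grey band for the interquartile range of all genes tested. Most points lie above 0 in TK/anti-Ang2 against TK/IgG (median 0.0775) and below 0 in TK/IgG against WT/IgG (median -0.0745), with most of them inside the band.

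The second comparison asked how tumours given anti-Ang2 differed from those given IgG in PDGFRb-TK hosts. Against TK/IgG tumours the ubiquitous subunits of TK/anti-Ang2 tumours were slightly higher, at a median of 0.0775 beside -0.0156 over all genes. Of the 64, 51 (79.7%) were higher and 13 lower, while 46.9% of all genes were higher, and the range was -0.23 to 0.36. By limma 0 genes (0%) passed an adjusted p of 0.05 (lowest 0.9919), 369 (3.34%) had an unadjusted p under 0.05, and no member was among them. This comparison uses the same TK/IgG arrays as the first, so a low TK/IgG array moves both, in opposite directions. The arrays again overlapped: TK/anti-Ang2 lay at 0.0569, 0.035 and -0.051 (mean 0.0136 ± 0.057, SD, n = 3). The median was 0.0397 without TK/IgG replicate 2, 0.111 without TK/IgG replicate 3, and 0.0693 when TK/anti-Ang2 replicate 2 was left out, the array that stood apart. The side was kept under all 5 scalings, at 0.0813 to 0.131 above the median of all genes.

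All 5 complexes had positive medians here, under all 5 scalings. Complex I was at 0.0749 (27 of 32 higher), complex II at 0.0538 (2 of 3), complex III at 0.0781 (4 of 5), complex IV at 0.115 (9 of 10) and complex V at 0.0504 (9 of 14). Single arrays decided the sign of the smaller values: complex II was at -0.0536 when TK/anti-Ang2 replicate 2 was left out and at -0.0755 without TK/IgG replicate 2, and complex V at -0.0138 without TK/IgG replicate 1. The assembly factors were at 0.0455, with 4 of 5 higher, and Ndufaf4, a complex I factor, differed by 0.24 (SE 0.16). The second Ndufaf4 probe went the other way, at -0.35.

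For 5 ubiquitous subunits every TK/anti-Ang2 array lay above every TK/IgG array, and for 0 below, where 2.61% and 4.33% of all genes did so. Ndufab1, the mitochondrial acyl carrier protein that is also built into complex I, had 12.09, 12.10 and 12.13 in TK/anti-Ang2, against 11.71, 11.76 and 12.06 in TK/IgG tumours. Its difference was 0.26 (SE 0.15), positive for all 3 of its probes that passed the detection filter. Ndufa9, an accessory subunit of the peripheral arm, had 10.99, 11.02 and 10.84 in TK/anti-Ang2, against 10.74, 10.74 and 10.77 in TK/IgG tumours, a difference of 0.20 (SE 0.13). Atp5pb, the stator's subunit b, had 11.25, 10.86 and 10.90 in TK/anti-Ang2, against 10.58, 10.83 and 10.79 in TK/IgG tumours. Its difference was 0.27 (SE 0.15) and 0.15 without TK/anti-Ang2 replicate 1, yet its 3 probes that passed the filter ranged from -0.23 to 0.33. Atp5g3 and Uqcrc2, a core protein of complex III, made up the 5, with differences of 0.16 (SE 0.14) and 0.0781 (SE 0.13).

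Cox7a2 had 8.09, 8.01 and 7.84 in TK/anti-Ang2, against the 7.30, 7.53 and 8.01 of TK/IgG tumours given above. With each gene taken by its brightest probe, this was the widest difference of a ubiquitous subunit here, at 0.36 (SE 0.19, limma p 0.08845, adjusted p 0.9919). The groups overlapped through the one TK/IgG array at 8.01. The difference was 0.20 without TK/IgG replicate 1 and 0.56 without TK/IgG replicate 3. Cox6c, a small complex IV subunit, went the other way by -0.20 (SE 0.20), Ndufb9 of complex I by -0.23 (SE 0.24) and Atp5e, the epsilon subunit, by -0.19 (SE 0.31). Single arrays moved all 3: without TK/IgG replicate 3, Cox6c was at -0.034 and Atp5e at 0.0786, and without TK/anti-Ang2 replicate 2, Ndufb9 was at -0.0652, while without TK/IgG replicate 2, Cox6c and Ndufb9 were at -0.43 and -0.41. The other catalytic and core members named in the first comparison differed by little beside their errors: Ndufv1 by 0.0386, Sdhb by 0.0538, Uqcrc1 by -0.0354, Cox4i1 by 0.108, Cox5a by 0.0991, Atp5a1 by -0.0164 and Atp5b by 0.0592. Among dimmer probes, a second Ndufa5 probe was at -0.71, where the brightest was at 0.0393, and another Atp5o probe at 0.48. Of the 25 members with several detected probes, signs were shared in 15 and mixed in 10 in this comparison.

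Between TK/anti-Ang2 and WT/IgG tumours, which differ in both host and antibody, the ubiquitous subunits were centred near 0, with a median of -0.0034 beside -0.035 over all genes. Here 31 (48.4%) were higher and 33 lower, against 44.6% of all genes higher, with a range of -0.49 to 0.31. The sign is not settled: scaling to one median gave -0.0938 and the authors' processed values gave 0.119, and leaving out single arrays gave -0.0529 (without WT/IgG replicate 3) to 0.0228 (without TK/anti-Ang2 replicate 3). By limma 0 genes (0%) passed an adjusted p of 0.05 (lowest 0.08234), while 817 (7.39%) had an unadjusted p under 0.05, with no member among them. Complex medians ran from -0.0435 in complex II to 0.0346 in complex IV, and each changed sign under at least 1 scaling. Cox6c had 11.85, 11.98 and 12.0003 in TK/anti-Ang2, against 12.33, 12.42 and 12.43 in WT/IgG tumours, the difference nearest to the threshold at -0.45 (SE 0.20, limma p 0.05314, adjusted p 0.6727). It and Atp5mpl were the 2 subunits with all TK/anti-Ang2 arrays below WT/IgG (7.74% of all genes). In the other direction were 3 (4.83% of all genes): Atp5pb by 0.31 (SE 0.15), and the complex I subunits Ndufs3 by 0.17 (SE 0.14) and Ndufs4 by 0.19 (SE 0.13). The probes of Atp5pb, Ndufs4 and Atp5mpl disagreed in sign. The 4 Ndufs4 probes ran from -0.27 to 0.19, and the 2 Atp5mpl probes differed by -0.20 and 0.19.

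Markers of other cell types also lay apart between these groups, each list given as its median difference. In TK/IgG against WT/IgG tumours the fibroblast list was at -0.86 (8 of 9 lower) and the pericyte and mural list at -0.24 (6 of 8 lower). Other lists lay as far from 0 there: the erythroid list at 0.91 (4 of 5 higher) and the white adipocyte list at 0.50 (7 of 7 higher). The skeletal muscle list was at -0.48 (15 of 17 lower) and the T and NK cell list at 0.36 (5 of 5 higher), while the macrophage list was at -0.0449. In TK/anti-Ang2 against TK/IgG tumours the endothelial list was at -0.66 (11 of 12 lower), the white adipocyte list at 1.68 (7 of 7 higher), the mast cell list at 1.24 and the keratinocyte list at 1.03, while the erythroid list was at -1.75. TK/anti-Ang2 replicate 2 carried much of 3 of these medians. Without it the white adipocyte list was at 0.348, the mast cell list at 0.192 and the keratinocyte list at -0.58 (7 of 8 lower), and the endothelial list was still at -0.615. The keratinocyte mean was 6.77, 12.12 and 6.35 in TK/anti-Ang2, against 6.20, 6.35 and 9.36 in TK/IgG tumours, so replicate 2 lay above all of the others. Fibroblast markers were higher in the second comparison, at a median of 0.34 (9 of 9 higher). Their mean was 8.94, 10.55 and 8.75 in TK/anti-Ang2, against 9.08, 8.66 and 8.95 in TK/IgG tumours. No gene of any list passed the adjusted threshold. The part of these lists in the subunits' shifts was not tested.

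Of the muscle isoforms, Cox6a2 and Cox8b spread more widely between arrays of a group (within-group SD 1.97 and 1.56) than any ubiquitous subunit (up to 0.429), while Cox7a1 lay inside that range at 0.424. Cox6a2, the form of subunit VIa of heart and skeletal muscle, had 6.42, 5.57 and 9.74 in TK/anti-Ang2, 4.58, 6.34 and 8.50 in TK/IgG and 7.43, 5.46 and 8.91 in WT/IgG tumours. Within every group its arrays spanned more than the groups differed, and the highest array of each group was the one numbered 3. The differences were -0.79 in TK/IgG against WT/IgG, 0.77 in TK/anti-Ang2 against TK/IgG and -0.0207 in TK/anti-Ang2 against WT/IgG tumours (SE 1.32 each), with signs that turned when single arrays were left out (-1.81 to 0.15, -0.48 to 1.79 and -1.27 to 0.82). Its ubiquitous partner Cox6a1 stayed between 12.12 and 12.57 on all 9 arrays.

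Cox6a2 followed the skeletal muscle markers array by array. The mean log2 signal of the 17 muscle genes tested (of 21 on the platform) was 6.75, 5.62 and 9.67 in TK/anti-Ang2, 5.46, 6.72 and 8.67 in TK/IgG and 7.47, 5.79 and 8.98 in WT/IgG tumours. Acta1, skeletal actin, spanned 5.50 to 12.59, and Ckm, muscle creatine kinase, was detected on 6 of the 9 arrays. Over the 9 arrays Pearson's r between Cox6a2 and the list's mean was 0.992 (exact permutation p 8.27e-06, adjusted 7.44e-05 over 9 relations) and Spearman's rho 0.983 (exact permutation p 4.96e-05, adjusted 0.000446). Without the 2 arrays farthest from the list's median, replicates 3 of TK/anti-Ang2 and WT/IgG, r was 0.981. Against the white adipocyte list Cox6a2 had an r of -0.156 (exact permutation p 0.687).

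Cox8b, the muscle form of subunit VIII, which mouse brown fat also expresses, had 6.58, 8.96 and 8.94 in TK/anti-Ang2, 4.44, 6.72 and 7.84 in TK/IgG and 6.65, 4.58 and 7.59 in WT/IgG tumours. TK/anti-Ang2 replicates 2 and 3 were the highest, but replicate 1 lay within the other groups. The differences were 1.83 in TK/anti-Ang2 against TK/IgG (SE 1.04, limma p 0.1143, adjusted p 0.9919), 1.89 in TK/anti-Ang2 against WT/IgG (p 0.104, adjusted p 0.6846) and 0.0621 in TK/IgG against WT/IgG tumours. Leaving out single arrays kept the first positive, at 0.88 to 2.62, and the second at 1.04 to 2.68, but turned the third (-0.79 to 1.01). With array weights, which give less weight to arrays that deviate, the first was 0.733 and the second 0.786, the lowest of 10 other settings. Cox8b was detected on 3 of 3 arrays in TK/anti-Ang2 tumours, but on 2 of 3 in TK/IgG and 2 of 3 in WT/IgG tumours, so signals near background enter both differences. The 2 high arrays differed in their markers: replicate 3 had the highest muscle mean of all 9 arrays at 9.67, and replicate 2 had a muscle mean of 5.62 and the highest white adipocyte mean, 9.68, where the other arrays lay at 5.34 to 8.20. On replicate 2 Cidea, a lipid droplet protein of brown fat, was at 7.62, against 4.51 to 5.12 elsewhere, while the brown fat markers Ucp1 and Elovl3 were detected on 0 of the 9 arrays. Of the 3 brown adipocyte genes tested, only Cidea stood out on that array. Dio2 was at 5.33 there, against 4.76 to 6.04 elsewhere, and Ppargc1a at 5.04, against 4.50 to 5.67. With the muscle list Cox8b had an r of 0.594 (exact permutation p 0.0966, adjusted 0.281), which was 0.394 without the 2 farthest arrays. With the white adipocyte list r was 0.548 (exact permutation p 0.125, adjusted 0.281), and with the brown adipocyte list 0.604 (exact permutation p 0.0715, adjusted 0.281), which was 0.213 without the 2 farthest arrays. None passed after adjustment. With TK/anti-Ang2 replicate 2 left out, a choice made after seeing the data, Cox8b and the muscle list had an r of 0.952 over the other 8 arrays. That array held a high Cox8b signal at a low muscle mean, so the higher r follows from the choice and tests nothing. The Cox8b difference of TK/anti-Ang2 from TK/IgG tumours was then 1.42.

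Cox7a1, the muscle form of subunit VIIa, had 7.13, 7.46 and 6.48 in TK/anti-Ang2, 6.81, 6.46 and 7.02 in TK/IgG and 7.28, 6.91 and 6.37 in WT/IgG tumours. It varied far less than Cox6a2 and Cox8b, and its groups overlapped, with differences of 0.26, -0.0913 and 0.17 in TK/anti-Ang2 against TK/IgG, TK/IgG against WT/IgG and TK/anti-Ang2 against WT/IgG tumours (SE 0.31 each). Its r with the muscle list was -0.488 (exact permutation p 0.181), and 0.036 without the 2 farthest arrays.

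**Figure D3:**
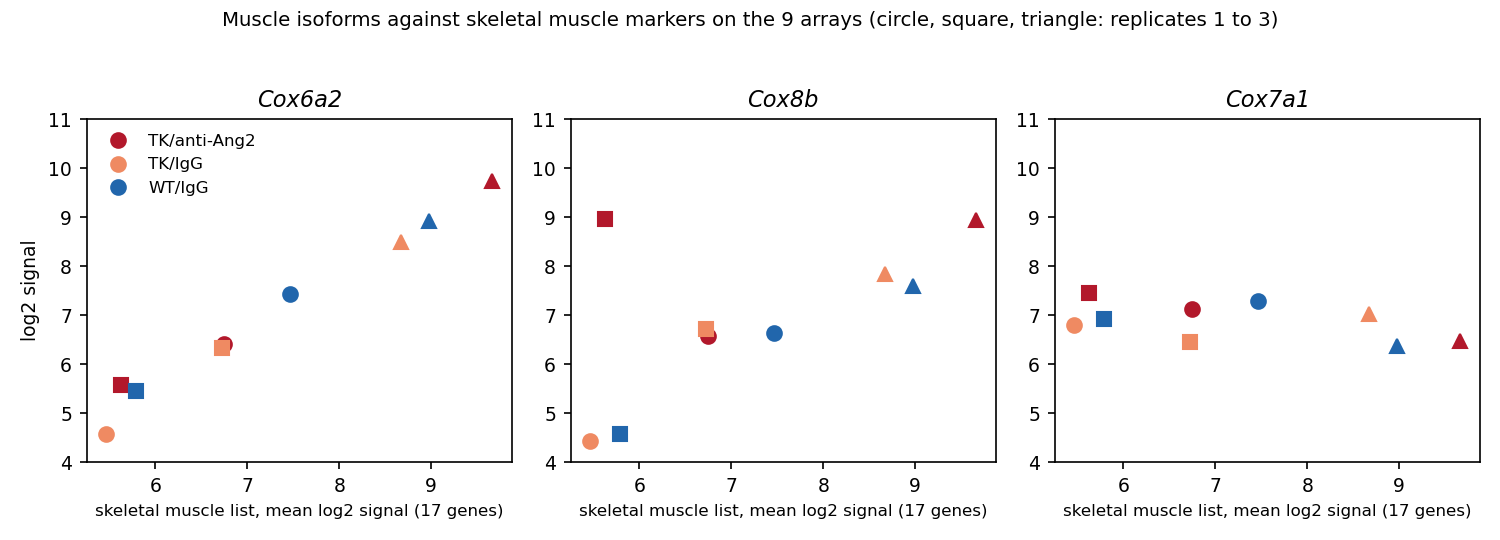
Log2 signal of Cox6a2, Cox8b and Cox7a1 (vertical axes) against the mean log2 signal of the skeletal muscle list (horizontal axis), one point per array, coloured by group. Cox6a2 follows the list along a line (r 0.992), Cox8b has 1 TK/anti-Ang2 array high at a low muscle mean (8.96 at 5.62), and Cox7a1 shows no such line.

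Subunits encoded in mitochondrial DNA are not taken in by the symbol rule. Their medians lay on the other side of 0 from those of the nuclear subunits in the comparisons that share the TK/IgG arrays, and on the same side in TK/anti-Ang2 against WT/IgG tumours. Of 8 on the platform 7 were tested: ND1, ND4, ND4L and ND5 of complex I, CYTB of complex III, COX2 of complex IV and ATP6 of complex V. In TK/IgG against WT/IgG tumours all 7 were higher (4 of 7 after scaling to one median), the median difference being 0.098. In TK/anti-Ang2 against TK/IgG tumours all 7 were lower (6 of 7 in the authors' processed values), the median being -0.192, and in TK/anti-Ang2 against WT/IgG tumours 5 of 7 were lower, with a median of -0.0989 that the authors' processed values turned to 0.0435. None passed the adjusted threshold. ND4L had 6.43, 6.20 and 6.10 in TK/anti-Ang2, against 6.96, 6.81 and 6.53 in TK/IgG tumours, a difference of -0.52 (SE 0.18, limma p 0.016, adjusted p 0.9919). ATP6, a membrane subunit of the ATP synthase, had 12.17, 12.08 and 12.23 in TK/anti-Ang2, against 12.83, 12.43 and 12.40 in TK/IgG tumours, a difference of -0.39 (SE 0.18). For both genes the groups did not overlap, as was so for 4.33% of all genes in that direction. ND4L had the dimmest probe of the 7. CYTB, ND1, ND4, COX2 and ND5 differed by -0.0849, -0.147, -0.192, -0.283 and -0.0175.

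As mean deviations per array, the mitochondrially encoded subunits were at -0.100 ± 0.0753 in TK/anti-Ang2, 0.134 ± 0.147 in TK/IgG and -0.0339 ± 0.0767 in WT/IgG tumours (SD, n = 3 each). The TK/IgG arrays stood at 0.246, 0.188 and -0.0319, so replicate 3 was again unlike the other 2, low here and high for the nuclear subunits. The 7 transcripts come from one small genome and are not independent of each other, and the comparisons share the TK/IgG arrays. The median in TK/IgG against WT/IgG tumours was 0.0411 without TK/IgG replicate 1 (5 of 7 higher) and 0.222 without WT/IgG replicate 3. In TK/anti-Ang2 against TK/IgG tumours leaving out TK/anti-Ang2 replicate 2 gave -0.115 and leaving out replicate 3 of that group -0.289 (6 of 7 lower in each).

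**Figure D4:**
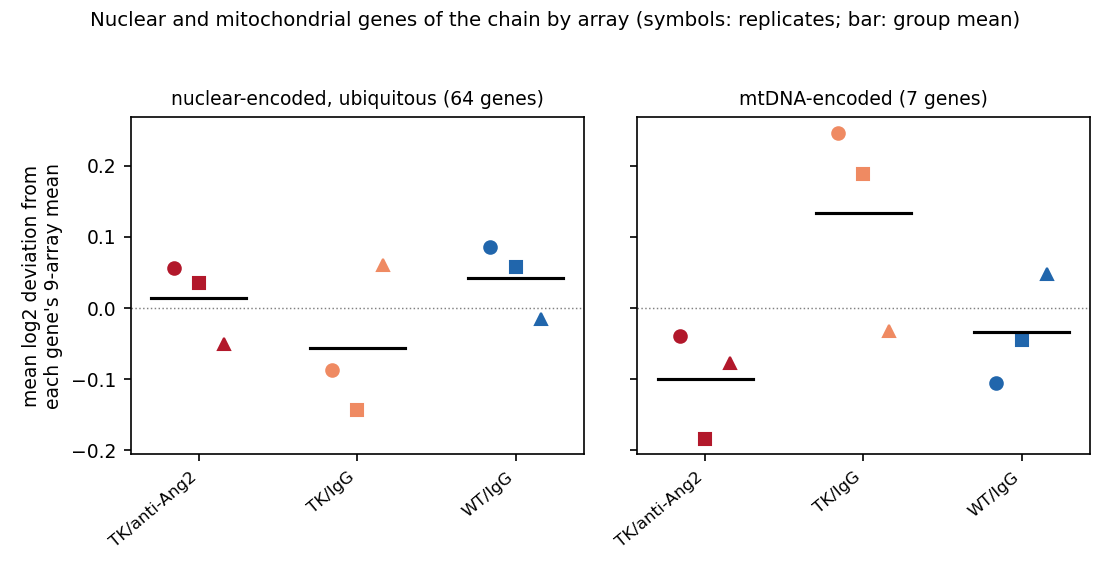
Mean log2 deviation (vertical axis) of the 64 nuclear-encoded ubiquitous subunits, left, and of the 7 subunits encoded in mitochondrial DNA, right, from their own 9-array averages for the 3 groups (horizontal axis), with a symbol for each replicate and a bar at the group mean. TK/IgG replicates 1 and 2 lie low on the left (-0.0871 and -0.143) and high on the right (0.246 and 0.188), and replicate 3 does neither.

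Other mitochondrial lists gave the following medians, in TK/IgG against WT/IgG and then in TK/anti-Ang2 against TK/IgG tumours. The TCA cycle, which feeds the chain with NADH and succinate, was at -0.143 (12 of 14 lower) and 0.113 (10 of 14 higher), where Pdhb, a pyruvate dehydrogenase subunit, differed by 0.38 (SE 0.16, limma p 0.04492, adjusted p 0.9919). Mitochondrial ribosomal proteins, which serve to translate the mitochondrially encoded subunits, were at -0.0355 (46 of 74 lower) and 0.0243 (45 of 74 higher). Mrps6, of the small ribosomal subunit, differed by -0.37 (SE 0.16, limma p 0.04575, adjusted p 0.9993) in the first. Electron carriers and coenzyme Q genes were at 0.01 (7 of 13 higher) and 0.169 (10 of 13 higher). Coq10b, a coenzyme Q binding protein, differed by 0.64 in TK/IgG against WT/IgG (SE 0.21, limma p 0.01362, adjusted p 0.9993) and by 0.59 in TK/anti-Ang2 against WT/IgG tumours (SE 0.21, limma p 0.02146, adjusted p 0.6724). Single arrays moved these medians in TK/anti-Ang2 against TK/IgG tumours. The TCA cycle was at 0.0356 without TK/IgG replicate 3, the mitochondrial ribosome at 0.0036 without TK/IgG replicate 2, and the carriers at 0.0932 without TK/anti-Ang2 replicate 2.

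The wider list of assembly factors stayed near 0, at 0.0267 (21 of 37 higher) and 0.023 (21 of 37 higher), signs that single arrays turned (to -0.0246 and -0.0145). In that list Bcs1l, which inserts the Rieske protein into complex III, was at -0.41 in TK/anti-Ang2 against TK/IgG tumours (SE 0.20, limma p 0.07585, adjusted p 0.9919). Regulators of mitochondrial biogenesis were at -0.0259 (6 of 13 higher) and -0.0505 (4 of 13 higher), the first turning to 0.104 without TK/IgG replicate 2 and the second going to -0.206 without TK/IgG replicate 3. Glycolysis, the route to ATP outside mitochondria, was at -0.0749 (9 of 14 lower) and 0.212 (12 of 14 higher), which were 0.088 (12 of 14 higher) and 0.0883 (10 of 14 higher) without TK/IgG replicate 3. In TK/anti-Ang2 against WT/IgG tumours it was at 0.165 with 14 of 14 higher, which was 9 of 14 without WT/IgG replicate 3, 10 of 14 after scaling to one median and 13 of 14 in the authors' processed values. No gene of these lists passed the adjusted threshold.

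The ablation pairs had 1 array each, so no replicate check and no test was possible. Ratios are log2 ratios of ablation over its own control. The arrays of the smaller platform were quantile-normalised together, apart from those of the larger platform. The ubiquitous subunits were centred near 0 in both pairs, with signs that depended on the scaling. In the early pair the median was -0.0098, beside -0.0103 over all 9637 genes, with 29 of 64 higher and 34 lower (48.3% of all genes were higher). In the late pair it was -0.027, beside 0.0043 over all genes, with 29 higher and 35 lower (50.7% of all genes were higher). Scaling to one median moved all genes by 0.0709 in the early pair, where the subunits' sign turned to 0.0698, and by -0.209 in the late pair, where the subunits were at -0.32, while the authors' processed values turned the late pair to 0.0181. By complex the early medians were -0.0308 in complex I, -0.0074 in II, -0.100 in III, 0.139 in IV (7 of 10 higher) and -0.0238 in V, and the late ones 0.0385, -0.0897, -0.0296, -0.0884 (7 of 10 lower) and -0.0952 in the same order.

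Few ubiquitous subunits went past a log2 ratio of 0.5 in size. In the early pair 1 was above (4.93% of all genes) and 2 below (3.19%), and in the late pair 0 above (3.02%) and 3 below (3.54%), shares near or under those of all genes. Ndufa4, first described as a complex I subunit and now placed in complex IV, had log2 signals of 12.54 in early ablation, against 11.84 in the early control, and of 11.66 in late ablation, against 12.18 in the late control. Its ratios of 0.70 and -0.52 thus lay on opposite sides, the late one at -0.46 in the authors' processed values. Atp5d, the delta subunit of the ATP synthase, had 10.20 in early ablation, against 10.80 in the early control (-0.60), and 10.94 in late ablation, against 10.93 in the late control. Ndufv1 had 11.38 in early ablation, against 11.92 in the early control (-0.53), and 11.84 in late ablation, against 11.78 in the late control.

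In the late pair Cox6a1 had 11.41 in late ablation, against 12.11 in the late control, a ratio of -0.70 that was -0.39 when its probes were averaged, beside 11.56 in early ablation, against 11.54 in the early control. Ndufs8, an iron-sulfur subunit of complex I, had 9.99 in late ablation, against 10.50 in the late control (-0.51), and 10.25 in early ablation, against 10.65 in the early control (-0.40). Its late ratio was -0.48 in the authors' processed values. Among the assembly factors Ndufaf4 went past the limit in the early pair, at 0.52. The catalytic subunit Atp5b was lower in both pairs, with 13.71 in early ablation, against 14.06 in the early control, and 13.52 in late ablation, against 13.96 in the late control. Cox7a2 stood at 7.66 in early ablation, against 7.62 in the early control, and at 7.50 in late ablation, against 7.55 in the late control, with ratios near 0.

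**Figure D5:**
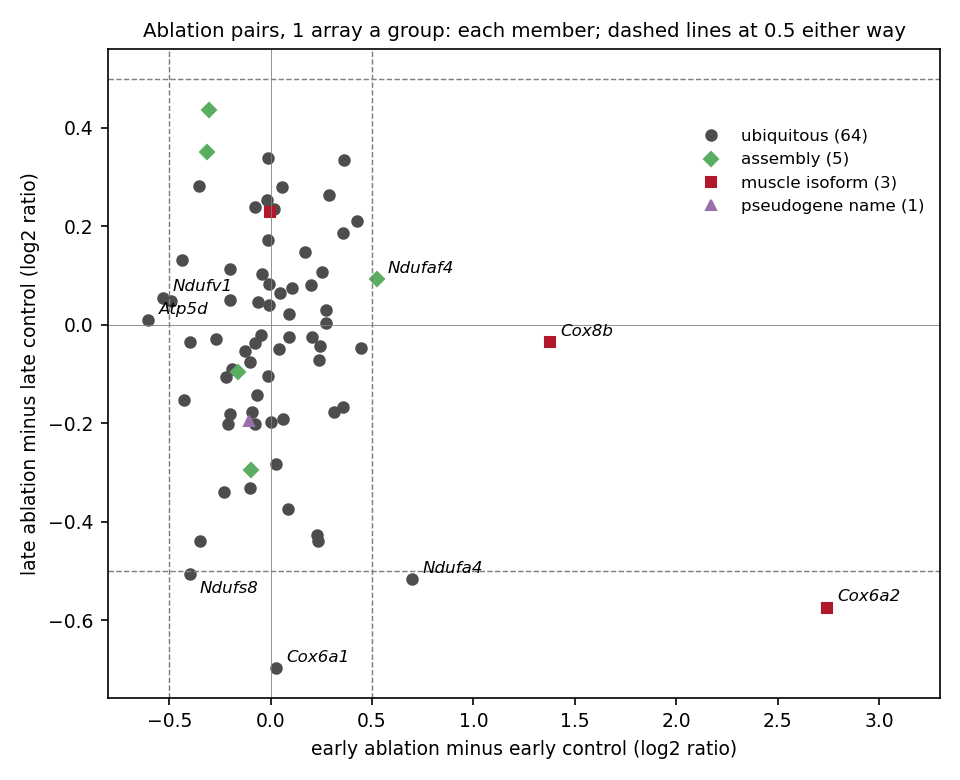
Log2 ratio of ablation over control for each of the 73 members in the early pair (horizontal axis) and the late pair (vertical axis), with a symbol for each class and dashed lines at 0.5 on either side. The ubiquitous subunits lie around 0 in both, and the muscle isoforms Cox6a2 (2.74) and Cox8b (1.38) lie far to the right.

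Of the 3 muscle isoforms 2 went past a log2 ratio of 0.5 in the early pair, both upwards, and 1 in the late pair, downwards. Cox6a2 had 9.19 in early ablation, against 6.44 in the early control, and 6.70 in late ablation, against 7.28 in the late control, ratios of 2.74 and -0.57. Cox8b had 7.54 in early ablation, against 6.16 in the early control (1.38), and 6.67 in late ablation, against 6.71 in the late control (-0.0349). Cox7a1 showed no such difference, with 7.20 in early ablation, against 7.21 in the early control, and 6.83 in late ablation, against 6.60 in the late control. The muscle markers lay on the same sides: of 18 used, all 18 were higher in early ablation, with a median ratio of 2.49, and 17 were lower in late ablation, with a median of -0.87. Acta1 had 12.38 in early ablation, against 6.15 in the early control, and 8.74 in late ablation, against 10.76 in the late control. The white adipocyte list was near 0 in both pairs, at 0.0256 and -0.0432. Other cell type lists lay further from 0. In the late pair the fibroblast list was at -1.22 (8 of 9 lower), the endothelial list at -0.45 (11 of 11 lower), the pericyte and mural list at -0.39 (7 of 8 lower) and the mast cell list at 1.12 (6 of 6 higher). In the early pair the macrophage list was at -0.63 (5 of 7 lower), the neutrophil list at 0.57 (7 of 7 higher) and the mast cell list at 0.61 (6 of 6 higher). The part of muscle and of these other markers in the members' ratios was not tested.

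Across stages, with 1 array each, the medians of late over early were below 0 in both arms after quantile normalisation. Other scalings were not run for these ratios. On the same arrays, scaling to one median took the median of the late pair from -0.027 to -0.32, so the sign across stages is not settled. The median of late ablation over early ablation was -0.158, with 22 of 64 higher (47.6% of all genes), beside -0.0206 over all genes. For late control over early control it was -0.0904, with 25 of 64 higher (45.3% of all genes), beside -0.0369. That is a share of 39.1% and near the background, and complex IV lay the other way there, with a median of 0.0299 and 6 of 10 subunits higher. Other mitochondrial lists were near 0 in the pairs: the TCA cycle was at -0.0272 in the early and -0.0939 in the late pair, the mitochondrial ribosome at -0.0708 (48 of 69 lower) and -0.0436 (44 of 69 lower), coenzyme Q and carriers at -0.0384 and -0.0759, assembly factors at 0.0415 and -0.087, biogenesis regulators at -0.0165 and 0.059, and glycolysis at -0.0739 and 0.135. Etfb, which carries electrons from fatty acid oxidation, had the widest ratio of the carriers at -0.88 in the early pair. Mitochondrially encoded genes were not measured on the smaller platform among the probes used here.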

How the data were processed

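Total RNA of 4T1 tumours was extracted with Trizol and RNeasy columns, checked on a Bioanalyser and labelled as biotinylated cRNA for Illumina bead arrays, per the labels' protocols. Per the file headers, each deposited table holds a non-normalised probe intensity and the detection p-value that goes with it. GenomeStudio is named in the submitters' processing notes, with a version not given in the sources used here. Processed intensities that the authors also deposited are a linear function of the signal on each array (largest residual 0.109). Groups follow the titles. A further 6 columns of the larger table, from 3 arrays, could be matched to no sample and were left unused.

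On the 9 arrays (45281 probes) signals were corrected and quantile-normalised with neqc (limma 3.58.1, R 4.3.3, offset 16), probes with a detection p below 0.05 on at least 3 arrays were kept, and the brightest probe stood for each gene (11057 genes). On the 4 arrays (25697 probes) normexp (offset 50) and quantile normalisation were used, with detection on at least 1 of the 3 arrays whose detection column is usable (9637 genes), because the late control's detection column repeats its signal. Gene names came from the platform annotation (34885 and 23978 probes with 1 symbol). Groups were compared with limma (lmFit, eBayes, 8.99 moderated degrees of freedom) over all 9 arrays, with Benjamini-Hochberg adjustment over all genes at 0.05. The number of arrays limits the precision. Correlations were tested by exact permutation over all pairings, two-sided (numpy 2.4.6). The code was tested on simulated data.

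Members and lists were chosen with earlier results of these data known. Named genes were isoform partners and core subunits, the 5 members with the smallest p in each direction of a comparison (largest ratio in a pair), and up to 3 genes of each other list. Uqcr11, Sdhc, Sdhd, Ndufs3, Uqcrc2, Acta1, Ckm, Cidea, Dio2 and Ppargc1a were named outside this rule, after their values were seen. Alternatives covered background correction, scaling, the authors' values, detection filters, probe averaging, the samples fitted, array weights, a replicate block and leaving out each array. Promoters came from a RefSeq table (GRCm38.p6); 63 members had an entry.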

Additional observations from a re-analysis of the deposited data

Results flagged for a closer look

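In the ablation pairs 2 members lay on opposite sides in the early and the late pair, past a log2 ratio of 0.5 in each. For Cox6a2 the early ratio of 2.74 minus the late ratio of -0.57 came to 3.32. For Ndufa4 the early ratio of 0.70 minus the late ratio of -0.52 came to 1.21. With 1 array in each group neither difference was tested. Of the 9 arrays, groups of 3 are too small for a search for outlying samples.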

How the results depend on the processing

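In the fits over 9 arrays the count of genes past the adjusted threshold was 0 in all 3 comparisons and stayed 0 under most alternatives. The exception was TK/anti-Ang2 against WT/IgG, with 1 gene when only genes detected on all 9 arrays were tested (8877 genes, adjusted p 0.03936) and 1 gene with array weights (adjusted p 0.04036). Array weights also raised the unadjusted counts to 451, 884 and 1817, from 325, 369 and 817 in TK/IgG against WT/IgG, TK/anti-Ang2 against TK/IgG and TK/anti-Ang2 against WT/IgG. Leaving out each array gave 0 to 0 genes in each comparison (lowest adjusted p 0.4212, 0.3575 and 0.07736). The subunits' median then ran from -0.1266 to -0.0307, from 0.0397 to 0.1109 and from -0.0529 to 0.0228 in the same order. Scaling to one median gave -0.2036 in TK/IgG against WT/IgG, -0.0938 in TK/anti-Ang2 against WT/IgG, 0.0698 in the early pair and -0.3197 in the late pair. The authors' processed values gave 0.1698 in TK/anti-Ang2 against TK/IgG and 0.1193 in TK/anti-Ang2 against WT/IgG. The cause was not tested. The other medians over the 64 subunits moved by less than 1 SD of the array means (124 values in all with the gene counts). Complex medians were judged by the SD of their own array means. Single genes were judged in this way only in the ablation pairs, by the median within-group SD over all genes. All of these SDs come from the 9 arrays. In the pairs, which have no replicates, they are borrowed from other samples on another platform. By these limits a further 46 values, complex medians and single genes, moved by more, 30 of them after scaling to one median. That scaling put complex I at -0.2036 and complex V at -0.2142 in TK/IgG against WT/IgG, and complex I at -0.2835 in the late pair, where the value reported is 0.0385.

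Same-numbered arrays correlated at -0.162 to 0.391 in their deviations from the group means, and 4 of 9 arrays correlated best with their own number. Some such matches arise without any pairing, so these values do not settle whether the numbers pair the samples. The labels state no pairing. With the replicate number as a block 0 genes passed in each comparison (370, 438 and 871 at an unadjusted p under 0.05, lowest adjusted p 0.8255, 0.9805 and 0.1956), and the medians were unchanged. A slide block was not run because the files name no slide, and neqc was not run on the pairs because of the late control's detection column. Leaving out an array is not possible with 1 array in each group. Dim probes limit Ndufb11, Cox7b, Cox6a2 and Cox8b, whose lowest signals lie near background.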
